A study of Mus musculus with 7 samples.

Results

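The genes described here are 9 components of hedgehog signalling and its ciliary arm: the ligand Shh, the receptor Ptch1, the ligand-binding inhibitor Hhip, the transducer Smo, the ciliary proteins Evc and Evc2, and the transcription factors Gli1, Gli2 and Gli3. All array probe sets annotated to them were taken, which gave 21 of the 45037 probe sets and 9 of the 18193 named genes. Evc was chosen by its measured difference between T-ETV1 and WT on these arrays, where it ranked 11 of 18193 genes by unadjusted p, and the other 8 genes were added as its pathway with their values known. The differences between genotypes in the 9 genes are therefore given as a description, without a test.

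RNA was measured on Affymetrix Mouse Genome 430 2.0 arrays in luminal cells, the secretory epithelium of the prostate gland. The 4 T-ETV1 arrays (A to D) come from mice with a human ETV1 cDNA, which encodes an ETS transcription factor, under the endogenous Tmprss2 promoter. The 3 WT arrays (A to C) come from wild-type mice. All cells were sorted as lineage negative (CD31, CD45, Ter119), Sca1 negative and CD49f positive, and T-ETV1 cells also as GFP positive, a gate that WT cells did not pass through. The allele and this extra gate cannot be told apart. Since the Tmprss2 promoter drives the allele, the model reaches cells in which that promoter is active. The sources used here give no age, strain or pooling of animals. They call the replicates biological and state 3, while 4 T-ETV1 arrays are labelled. Nothing ties each array to an animal of its own, so the spread may be in part technical.

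In the absence of ligand, Ptch1 keeps Smo out of the primary cilium, an antenna-like organelle of the cell surface. Binding of a hedgehog ligand to Ptch1 releases Smo, which gathers in the cilium with Evc and Evc2 at its base and turns the Gli factors towards activation. Gli1, Ptch1 and Hhip are themselves transcribed in answer to the pathway, so that their RNA is commonly read as its output. In the developing prostate Shh is made by the epithelium of the urogenital sinus and acts largely on the surrounding mesenchyme.

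Luminal markers were bright on every array. The 10 measured genes, among them Pbsn, Msmb and Krt18, summed to intensities between 72590 and 79860 in T-ETV1 and between 74692 and 76104 in WT. The brightest probe sets dominate this sum, and dimmer ones varied more: Tmprss2 had 2908 to 4945 in T-ETV1 and 3818 to 4470 in WT. Markers of other cells were present in both groups and differed widely between arrays. The 12 fibroblast genes, with Dcn, Apod and Col3a1 the brightest, summed to 2474 to 9902 in T-ETV1 and 6036 to 33935 in WT. The 10 basal genes summed to 3713 to 22716 in T-ETV1 and 10230 to 27129 in WT, the 10 leukocyte genes to 5873 to 15453 in T-ETV1 and 6983 to 20662 in WT. Arrays T-ETV1 C and WT C had the highest sum of their group for the fibroblast, basal, leukocyte, endothelial and smooth muscle lists. No marker of these lists was at or under an intensity of 1 on all arrays, while Lmod1 and Cnn1 of smooth muscle and Itgam of leukocytes, named after their values were seen, had group means within the range of olfactory receptor probe sets in both genotypes. In sorted bulk RNA, fewer cells of a type and less RNA per cell cannot be told apart.

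Of the 9 genes, 4 had a probe set above the background range on all 7 arrays: Shh, Ptch1, Smo and Gli3. No detection calls were used here, so the 44 probe sets of olfactory receptor genes, a family not thought to be transcribed in prostate, served as a guide to the signal of an unexpressed gene. Their median lay between 5.69 and 7.96 and their 95th percentile between 15.6 and 23.7 on the 7 arrays. Of the 21 probe sets, 4 exceeded that percentile on every array, 11 on some and 6 on none. Probe sets differ in how brightly they report the same RNA, so this guide is rough and levels are not compared between genes.

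**Figure D1:**
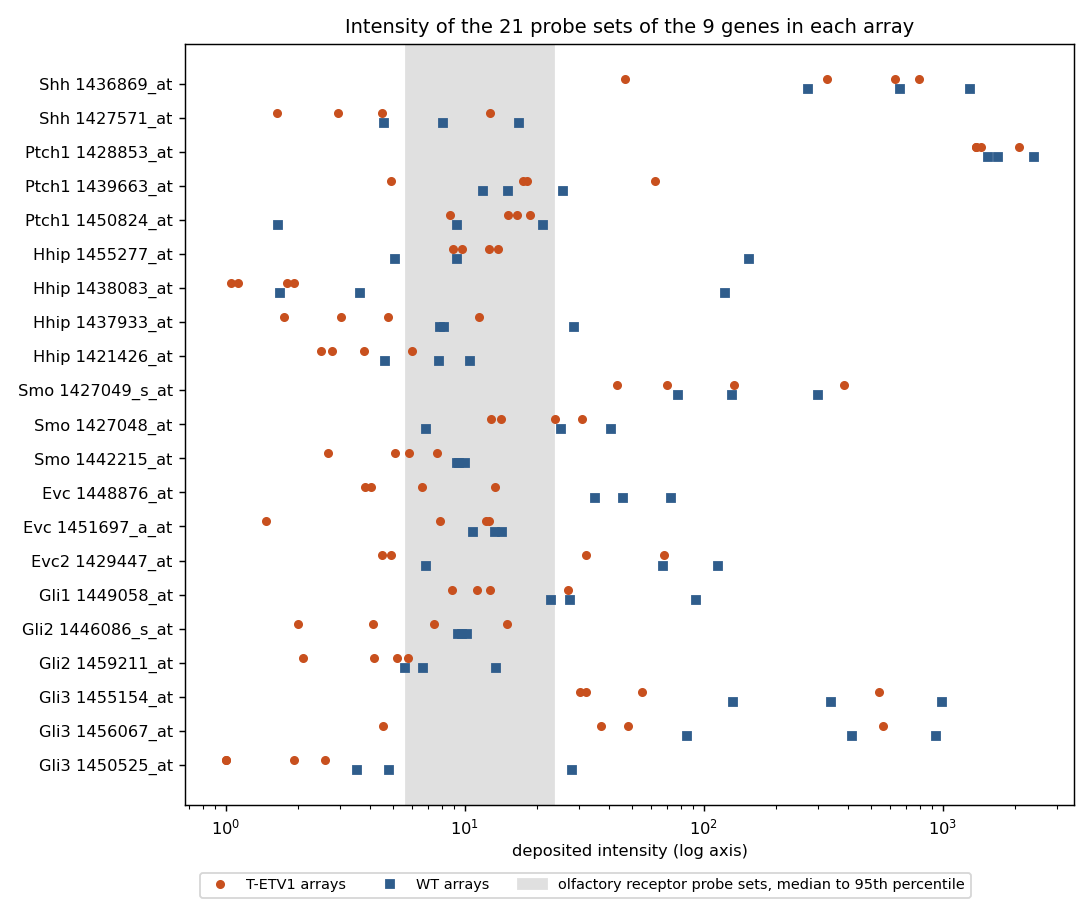
Deposited intensity (log axis) of the 21 probe sets of the 9 genes on each T-ETV1 array (circles) and WT array (squares), with the grey band running from the lowest median to the highest 95th percentile of olfactory receptor probe sets. Only 4 probe sets, 1 each of Shh, Ptch1, Smo and Gli3, exceeded the 95th percentile of their own array on all 7 arrays, and Evc (1448876_at) lay inside or below the band in T-ETV1 and above it in WT.

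All 9 genes had a lower mean in T-ETV1 than in WT, but for most of them the arrays of the groups overlapped. With 1 probe set per gene (that with the highest mean), the median log2 difference, T-ETV1 minus WT, was -0.79 over the 9 genes and -0.03 over all genes. A difference below 0 was found in 55.6% of all genes. Differences are on the scale log2(intensity + 16), which understates the change of dim genes. Of the 21 probe sets 19 were lower and 2, both of Ptch1, were higher, against 54.1% of all probe sets below 0. The groups did not overlap, with T-ETV1 lower, in 1 of the 9 genes (3.9% of all genes) and in 3 of the 21 probe sets (3.71% of all probe sets). Since the genes were chosen with these values known, nothing is read from these shares. In the limma fit 0 of all 18193 genes (0%) and 0 of all probe sets passed an adjusted p of 0.05, and 1113 genes (6.12%) had an unadjusted p under 0.05.

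The ligand Shh was well above background but varied more between arrays than between genotypes. Its probe set 1436869_at had intensities of 46.6, 326, 796 and 629 in T-ETV1 A to D, against 272, 662 and 1297 in WT A to C. The highest T-ETV1 array was 17.1 times the lowest, and the highest WT array 4.76 times the lowest. The groups overlapped, and T-ETV1 A alone lay below all WT arrays. The log2 mean was 8.35 ± 1.67 in T-ETV1 (SD, n = 4) and 9.31 ± 1.10 in WT (SD, n = 3), a difference of -0.97 ± 0.97 (SE). It was -0.17 without T-ETV1 A and -0.44 without WT C. The other Shh probe set, 1427571_at, lay between 1.63 and 16.8 and was on no array above the background range.

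Ptch1, which binds the ligand and restrains Smo, was bright and steady. Probe set 1428853_at had 1371, 1446, 2086 and 1373 in T-ETV1 A to D, against 1546, 1702 and 2406 in WT A to C. The C array was the brightest in each genotype, and the other T-ETV1 arrays lay below all WT arrays. The difference was -0.26 ± 0.22, with log2 means of 10.61 ± 0.29 in T-ETV1 (SD, n = 4) and 10.87 ± 0.33 in WT (SD, n = 3). This is smaller than the SD of either group. Within the arrays of like letter it was -0.17 for A, -0.23 for B and -0.20 for C. After median centring it was -0.12, and without WT C -0.07. The dim probe sets 1439663_at and 1450824_at differed by 0.16 and 0.26 in the opposite direction, and the mean of the gene's 3 probe sets gave 0.053.

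Hhip, a membrane protein that captures hedgehog ligands, was near background everywhere except in WT C. Probe set 1455277_at had 9.72, 12.7, 13.8 and 8.96 in T-ETV1 A to D, against 5.12, 9.23 and 155 in WT A to C. Probe set 1438083_at had 1.05 to 1.92 in T-ETV1, against 1.69, 3.64 and 123 in WT A to C. WT C was thus the only array with clear Hhip signal, in both of these probe sets. The remaining probe sets, 1437933_at and 1421426_at, were also highest in WT C, at 28.6 and 10.5. The difference of -0.73 ± 0.71 for 1455277_at turned to 0.24 without WT C and to 0.19 without both C arrays.

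Smo, the membrane protein that carries the signal onward, did not separate the genotypes. Probe set 1427049_s_at had 70.4, 134, 387 and 43.5 in T-ETV1 A to D, against 78.1, 131 and 300 in WT A to C. The arrays of the groups were interleaved, with T-ETV1 C the highest of the 7 and WT C next. The suffix _s marks probe sets that may also match other transcripts. The difference was -0.30 ± 0.72, with log2 means of 7.05 ± 1.20 in T-ETV1 (SD, n = 4) and 7.35 ± 0.88 in WT (SD, n = 3). It was 0.18 without WT C and 0.086 without T-ETV1 D. The dimmer 1427048_at differed by -0.08. In 1442215_at, below the background limit on every array, T-ETV1 had 2.67 to 7.67 and WT 9.27 to 9.97.

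Evc showed the clearest separation of the genotypes among the 9 genes. Its protein lies at the base of the primary cilium, where it binds Smo together with Evc2, and loss of either gene in people causes Ellis-van Creveld syndrome, a skeletal dysplasia. Probe set 1448876_at had intensities of 6.63, 4.04, 13.4 and 3.84 in T-ETV1 A to D, against 45.8, 35.2 and 72.7 in WT A to C. All 4 T-ETV1 arrays lay below all 3 WT arrays. No T-ETV1 array exceeded the 95th percentile of olfactory receptor probe sets, and all WT arrays did. The log2 mean was 4.50 ± 0.26 in T-ETV1 (SD, n = 4) and 6.03 ± 0.40 in WT (SD, n = 3), a difference of -1.53 ± 0.23. Within arrays of like letter it was -1.45 for A, -1.35 for B and -1.59 for C. Leaving out single arrays gave -1.71 (without WT B) to -1.31 (without WT C). Markers of other cells were lower in T-ETV1 too, in 12 of 12 fibroblast, 10 of 10 basal, 10 of 10 endothelial, 10 of 11 smooth muscle, 6 of 6 neuroendocrine, 5 of 6 Schwann and 8 of 10 leukocyte genes. The summed neuroendocrine markers, named after their values were seen, did not overlap between the groups, at 119 to 356 in T-ETV1 and 489 to 756 in WT. Single genes without overlap, T-ETV1 lower, were 4 of 12 fibroblast, 3 of 10 endothelial, 3 of 11 smooth muscle and 2 of 6 neuroendocrine genes. They were 0 in the basal, leukocyte and Schwann lists, and 3.9% of all genes. Of the 6 neuroendocrine genes 2 had a T-ETV1 mean within the background range, and 1 of them, Insm1, also a WT mean within it. The leukocyte count of lower genes rested on the C arrays: it was 1 of 10 without WT C and 3 of 10 without both C arrays. Without both C arrays the fibroblast, basal and endothelial counts of lower genes were unchanged. Without WT C alone they were 10 of 12, 8 of 10 and 10 of 10. The basal count was also 8 of 10 without T-ETV1 A. Those of smooth muscle, neuroendocrine and Schwann genes were 8 of 11, 5 of 6 and 4 of 6, both without WT C and without both C arrays. The part of each of these lists, leukocytes included, in the Evc difference was not tested.

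The size of the Evc difference depended on the scale and on the probe set. With a pseudocount of 1 in place of 16 it was -2.80, and with 64 it was -0.69, because the T-ETV1 values are close to background. The second Evc probe set, 1451697_a_at, had 12.2, 1.48, 7.90 and 12.6 in T-ETV1 A to D, against 10.8, 13.3 and 14.3 in WT A to C. These groups overlapped and no array was above the background range. The difference was -0.26 ± 0.20 there and -0.89 for the mean of the 2 probe sets.

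Evc2, the binding partner of Evc, is its head-to-head neighbour. Both lie on mouse chromosome 5, Evc on the minus strand at 37288970 to 37336947 and Evc2 on the plus strand at 37338478 to 37425055 (RefSeq, GRCm38.p6). The transcript starts of their promoter records have 1596 bases between them and point away from each other. The 300-base promoter windows (250 bases before the transcript start and 50 from it on), credited to RefSeq on GRCm38.p6, are shown because this arrangement lets the pair be compared as neighbours. The capitals mark the longest exact stretch that the windows share, 13 bases in inverted orientation.

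Evc, chr5:37336832-37337131, minus strand: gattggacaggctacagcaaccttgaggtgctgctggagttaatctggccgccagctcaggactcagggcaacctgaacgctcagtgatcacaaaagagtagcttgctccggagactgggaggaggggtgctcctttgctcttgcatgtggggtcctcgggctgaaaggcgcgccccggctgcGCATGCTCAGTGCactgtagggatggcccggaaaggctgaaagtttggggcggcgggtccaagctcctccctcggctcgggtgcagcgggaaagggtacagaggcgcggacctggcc
Evc2, chr5:37338228-37338527, plus strand: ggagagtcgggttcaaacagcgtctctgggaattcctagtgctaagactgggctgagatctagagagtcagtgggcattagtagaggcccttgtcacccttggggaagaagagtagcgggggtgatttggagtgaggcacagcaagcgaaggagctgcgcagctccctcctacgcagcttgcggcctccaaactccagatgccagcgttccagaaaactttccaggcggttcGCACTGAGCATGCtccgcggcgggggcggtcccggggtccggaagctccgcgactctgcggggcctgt

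The shared stretch starts at base -67 in Evc and at base -18 in Evc2, counted from the transcript start of each promoter record. For Evc this start is 37336881, inside the gene record that ends at 37336947. Most of the marked Evc stretch thus falls within the annotated gene. The stretch occurs, on either strand, in 10 of 32851 promoter windows (0.0304%). In the same orientation the longest shared stretch had 9 bases. The windows have 62.7% (Evc) and 61.0% (Evc2) G and C. The consensus Gli site GACCACCCA, searched on both strands, has no match in the windows of the 7 members with a promoter record (Evc, Evc2, Smo, Hhip, Gli2, Gli3 and Ptch1), nor with 1 mismatch, while 0.253% of all windows hold it exactly and 6.74% with up to 1 mismatch. This says only that these letters are not in these windows.

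Evc2 did not separate the genotypes on these arrays. Its probe set 1429447_at had 32.1, 4.90, 68.3 and 4.51 in T-ETV1 A to D, against 6.90, 67.2 and 115 in WT A to C. In each genotype some arrays lay above the background range and others within it, so that the groups overlapped. T-ETV1 was higher than WT for letter A, by 1.07, and lower for letters B and C, with differences of -1.99 and -0.64. The mean difference was -0.79 ± 0.75 and ran from -1.52 without WT A to -0.27 without WT C. Whether it differs from that of Evc was not tested. Of the other genes within 100 kb of Evc that were measured, Crmp1, whose annotated end overlaps that of Evc, had 2.98 to 6.25 in T-ETV1 and 6.09 to 34.8 in WT, a difference of -0.62 ± 0.28 (limma adjusted p = 0.822). It was above the background range on WT C alone.

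Gli1, an activator that is also a target of the pathway, had low signal. Probe set 1449058_at had 27.1, 11.3, 12.7 and 8.86 in T-ETV1 A to D, against 27.5, 22.9 and 93.0 in WT A to C. The groups overlapped because T-ETV1 A lay between WT B and WT A, while the other T-ETV1 arrays lay below all WT arrays and within the background range. The difference was -0.91 ± 0.39. By letter it was -0.02 for A, -0.51 for B and -1.93 for C, and without WT C it was -0.44.

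Gli2, the main activator among the Gli factors, could not be told from background. Probe set 1446086_s_at had 2.01, 4.14, 15.0 and 7.46 in T-ETV1 A to D, against 9.73, 9.39 and 10.2 in WT A to C. Probe set 1459211_at lay between 2.10 and 5.80 in T-ETV1 and between 5.63 and 13.5 in WT. The difference for 1446086_s_at was -0.19 ± 0.19, and -0.05 after median centring. At this signal a change in Gli2 was not detectable.

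Gli3, which acts largely as a repressor when the ligand is absent, had a large mean difference together with a wide spread. Probe set 1455154_at had 30.4, 55.1, 538 and 32.2 in T-ETV1 A to D, against 132, 339 and 993 in WT A to C. T-ETV1 A, B and D lay below all WT arrays, and T-ETV1 C above WT A and WT B. Probe set 1456067_at gave the same picture, with 4.55, 37.1, 561 and 48.4 in T-ETV1 A to D, against 85.2, 417 and 934 in WT A to C. The 4 highest arrays stood in the same order in both probe sets: WT C, T-ETV1 C, WT B and WT A. The log2 difference was -1.96 ± 1.05 for 1455154_at, with means of 6.60 ± 1.70 in T-ETV1 (SD, n = 4) and 8.55 ± 1.39 in WT (SD, n = 3). It was -1.24 without WT C and -2.79 without T-ETV1 C. The third probe set, 1450525_at, had at most 2.61 in T-ETV1 and 3.55 to 28.0 in WT, with only WT C above the background range.

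**Figure D2:**
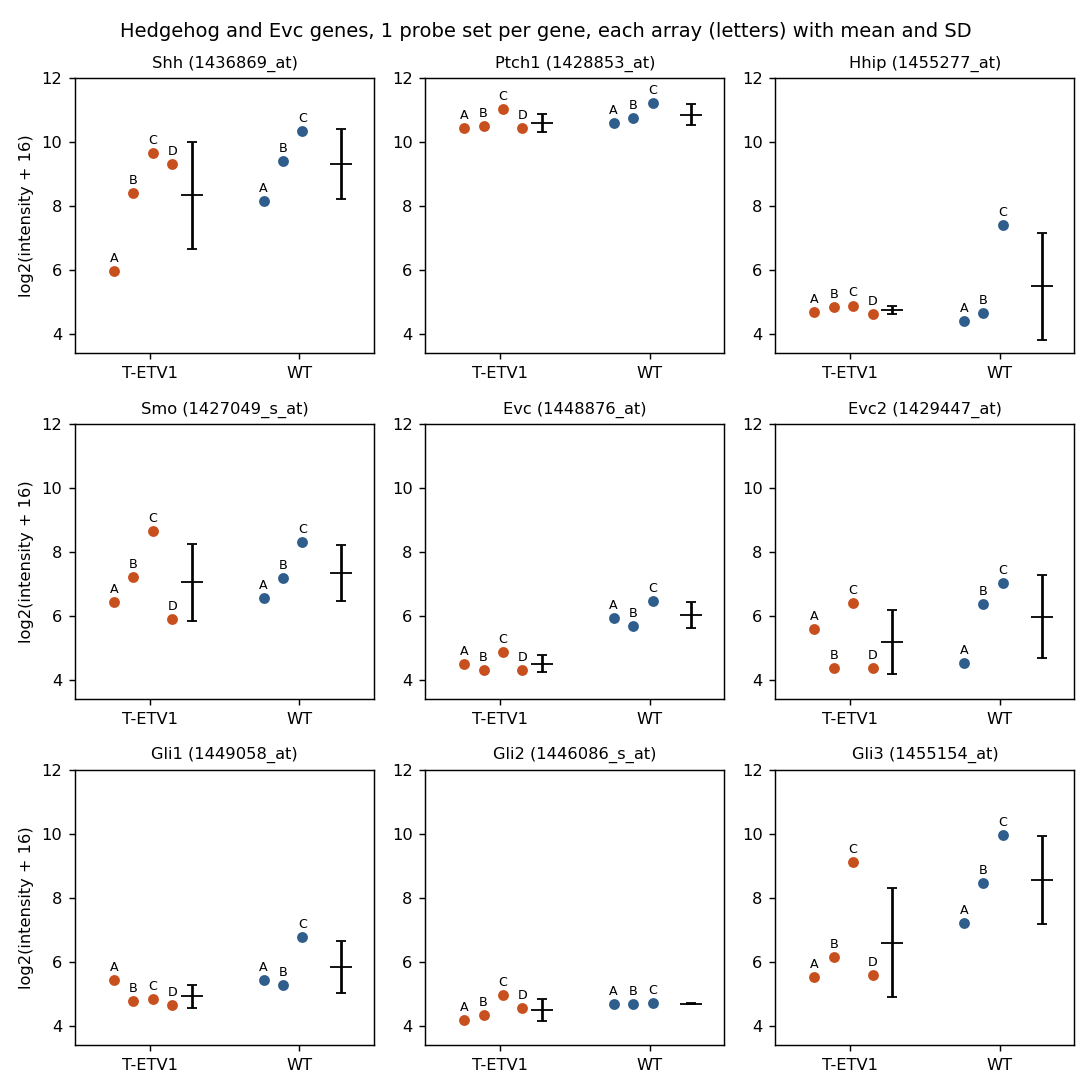
Value of each of the 9 genes as log2(intensity + 16), 1 probe set per gene, with T-ETV1 arrays A to D left and WT arrays A to C right of each panel (letters) and the mean with its SD beside them. Evc is the gene whose groups do not overlap, array C is the highest of its group in both genotypes for 8 genes, and Hhip stands out in WT C alone.

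In 8 of the 9 genes T-ETV1 C was the highest T-ETV1 array and WT C the highest WT array. Gli1 was the exception, with T-ETV1 A the highest of its group. The C arrays also had the highest median intensity of their group, 62.9 in T-ETV1 C and 73.7 in WT C. The 95th percentile of olfactory receptor probe sets was highest on T-ETV1 C, at 23.7. Evc, Hhip and Gli2 lay below it there, so their rank in T-ETV1 means little. The part of scaling and background in this order was not tested. Among all genes 19.7% had both C arrays highest. The C arrays were also those with the highest sums of fibroblast, basal and leukocyte markers. The fibroblast receptor gene Pdgfra, chosen after its values were seen, had 89.2, 231, 1279 and 293 in T-ETV1 A to D, against 182, 486 and 2789 in WT A to C. The leukocyte gene Lyz2 had 147, 39.6, 4962 and 44.8 in T-ETV1 A to D, against 21.1, 34.5 and 5163 in WT A to C. Gli3 and Smo were highest on these same arrays, and Hhip on WT C. The part of other cells in these values was not tested. The Evc difference was -1.44 without both C arrays, and that of Gli3 -2.08.

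**Figure D3:**
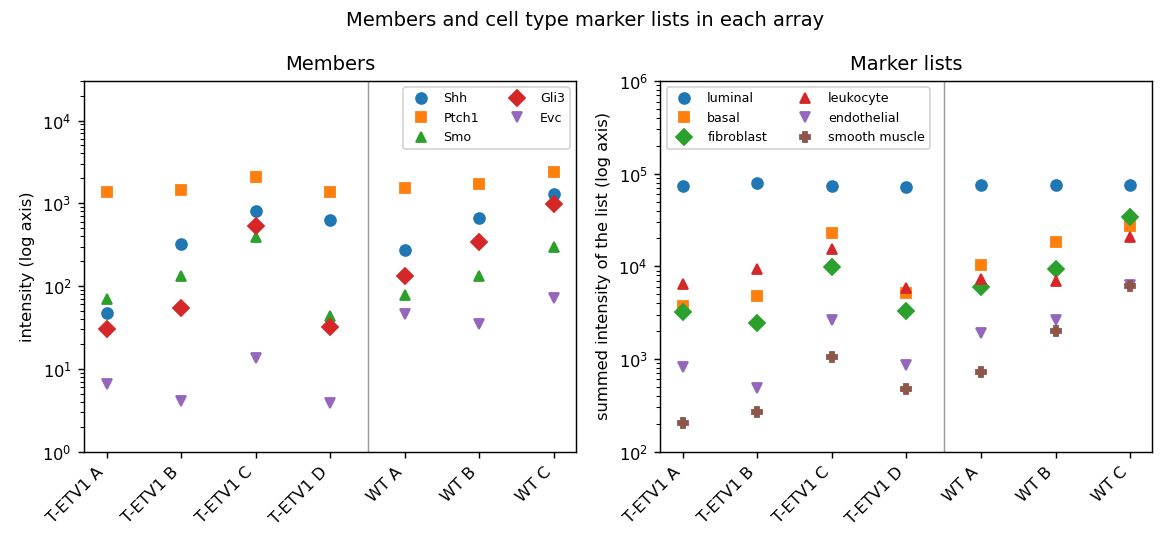
Intensity of 5 of the genes (left) and summed intensity of the cell type marker lists (right) on each array, on log axes, with T-ETV1 left of the line and WT right of it. Summed luminal markers lie between 72590 and 79860 over the 7 arrays, while Gli3, Smo and the basal, fibroblast and leukocyte sums are highest in the C array of each genotype.

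With the arrays set side by side by letter, T-ETV1 was lower in all 3 pairs in 5 of the 9 genes: Shh, Ptch1, Evc, Gli1 and Gli3. Among all genes this held in 16.7%. By probe set it held in 11 of 21, against 15.5% of all probe sets. Of these, 1421426_at of Hhip and 1442215_at of Smo were above the background range on no array. The genes were chosen with these values known and the titles state no pairing, so nothing is read from these shares. In the other 4 genes the sign differed between pairs.

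The genes nearest to each member in pattern were found by the root mean square difference between log2 values, each centred on its mean over the 7 arrays. For Evc the nearest were Arhgap10 (0.12), Gpr161 (0.17), Tph1 (0.23), Kit (0.23) and Dio3os (0.25). For Gli3 they were Bmp4 (0.24), Stab1 (0.28), Tgfbi (0.30), Serpinh1 (0.34) and Chst1 (0.35). For Shh they were S100a6 (0.26), Ptpru (0.50), Wfdc2 (0.52), Myof (0.53) and Clca3a1 (0.54). For Evc2 they were Steap4 (0.25), Dcn (0.27), Pcdh12 (0.27), Stx2 (0.34) and Adarb1 (0.37), and for Smo Clec4e (0.22), Zfp467 (0.26), Pcdhb21 (0.26), Zfp385a (0.28) and Il6st (0.32). Hhip, with its peak in WT C, was nearest to Trank1 (0.14), Cd79a (0.14), Xcl1 (0.15), Cd3d (0.16) and Rnase6 (0.16), and Gli1 to Acap1 (0.11), Bhmt (0.13), Oxtr (0.15), Prdm1 (0.19) and Pik3r5 (0.19). Ptch1 was nearest to Zfp512 (0.04), Rsu1, Nxn, Bcl7a and Tinagl1 (0.07 each), and Gli2 to Pde6d (0.04), Tmem170 (0.06), Zfp623 (0.07), Katnbl1 (0.08) and Cacybp (0.08), which for these level or dim genes means little. Among the members themselves Ptch1 and Gli2 were closest (0.20), then Evc and Gli1 (0.46), while Evc and Evc2 lay 0.88 apart.

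For the other genes of the pathway no call was possible, since 0 of all 18193 genes (0%) passed the limma adjusted p of 0.05. Of 21 listed genes for other ligands, coreceptors and intracellular steps, 19 were measured: 13 were lower and 6 higher, and 0 passed the limma adjusted p of 0.05. Their median difference was -0.15, against -0.03 for all genes, and 3 were lower at an unadjusted p under 0.05, a rule that 4.12% of all genes met. The list stood at 12 lower and 7 higher after quantile normalization (median -0.04), and at 10 lower and 9 higher after median centring (median -0.01). Its median was -0.35 without WT A and -0.03 without WT C. Gpr161, a ciliary receptor that restrains the pathway, had 8.89, 4.22, 18.1 and 3.97 in T-ETV1 A to D, against 36.2, 25.8 and 77.0 in WT A to C. Its groups did not overlap, and the difference was -1.28 ± 0.32 (limma adjusted p = 0.646). All its T-ETV1 values lay within the background range, so this size depends on the scale, as for Evc. Gas1, a coreceptor for Shh, had 21.9 to 85.4 in T-ETV1 and 99.1 to 1448 in WT, a difference of -2.53 ± 0.85 (limma adjusted p = 0.762), and WT C held its highest value. Efcab7, which anchors the Evc and Evc2 complex in the cilium, had 110, 179, 249 and 131 in T-ETV1 A to D, against 279, 244 and 339 in WT A to C (-0.78 ± 0.27, limma adjusted p = 0.772). T-ETV1 C and WT B overlapped narrowly.

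Further genes of that list are given as a description. Kif7, a ciliary kinesin that regulates Gli factors, differed by -1.24 ± 0.63, the coreceptor Cdon by -1.01 ± 0.57 and the kinase gene Stk36 by -0.83 ± 0.60 (limma adjusted p of 0.845, 0.865 and 0.881). Sufu, which holds Gli factors in the cytoplasm, had 480 to 949 in T-ETV1 and 479 to 627 in WT (0.34 ± 0.26). The sister ligands Dhh and Ihh differed by 0.02 ± 0.24 and 0.02 ± 0.41, with intensities of 15.0 to 70.2 in T-ETV1 and 21.3 to 61.8 in WT. These 3 genes were chosen after their values were seen.

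Of the genes described as hedgehog targets in other tissues, 11 were measured, 7 lower and 4 higher. As among all genes (0%), 0 passed the limma adjusted p. An unadjusted p under 0.05 was found in 0 of the 11, against 6.12% of all genes. With so few genes, nothing about these genes is read from these counts. Their median difference was -0.04. Those with the smallest unadjusted p included Igfbp6, an insulin-like growth factor binding protein (-1.77 ± 1.0), the apoptosis inhibitor Bcl2 (-0.99 ± 0.73) and Foxf1, a mesenchymal forkhead factor (-0.95 ± 0.43). Foxf1 had 15.5 to 30.6 in T-ETV1 and 23.1, 46.4 and 129 in WT A to C (limma adjusted p = 0.822). Foxf2 differed by 0.18 ± 0.15, Nkx3-2 by 0.12 ± 0.18 and the cyclin Ccnd1 by 0.07 ± 0.13. The direction of this list turned with the scaling, to 4 lower and 7 higher after quantile normalization or median centring. With the lowest 30% of genes left out, 5 of its genes remained, 4 of them lower, with a median of -0.95.

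Structural genes of the primary cilium lay around 0. Of 47 measured, 28 were lower and 19 higher, with a median of -0.06, and 0 passed the limma adjusted p, as among all genes (0%). With an unadjusted p under 0.05, 5 were lower and 1 higher, rules that 4.12% and 2% of all genes met. After quantile normalization 19 were lower and 28 higher, and after median centring 13 and 34. Dync2li1, a subunit of the retrograde transport motor, had 248 to 393 in T-ETV1 and 381 to 535 in WT (-0.59 ± 0.19, limma adjusted p = 0.758). Ift80, of the anterograde transport complex, had 184, 177, 299 and 286 in T-ETV1 A to D, against 321, 392 and 391 in WT A to C (-0.64 ± 0.22). The transition zone genes Tmem231 and Tctn1 differed by -0.40 ± 0.14 and -0.66 ± 0.24, and Bbs1, of the BBSome, by -0.62 ± 0.26. B9d1, also of the transition zone, ran the other way, with 1165 to 1321 in T-ETV1 and 1011 to 1080 in WT (0.25 ± 0.10, limma adjusted p = 0.801).

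**Figure D4:**
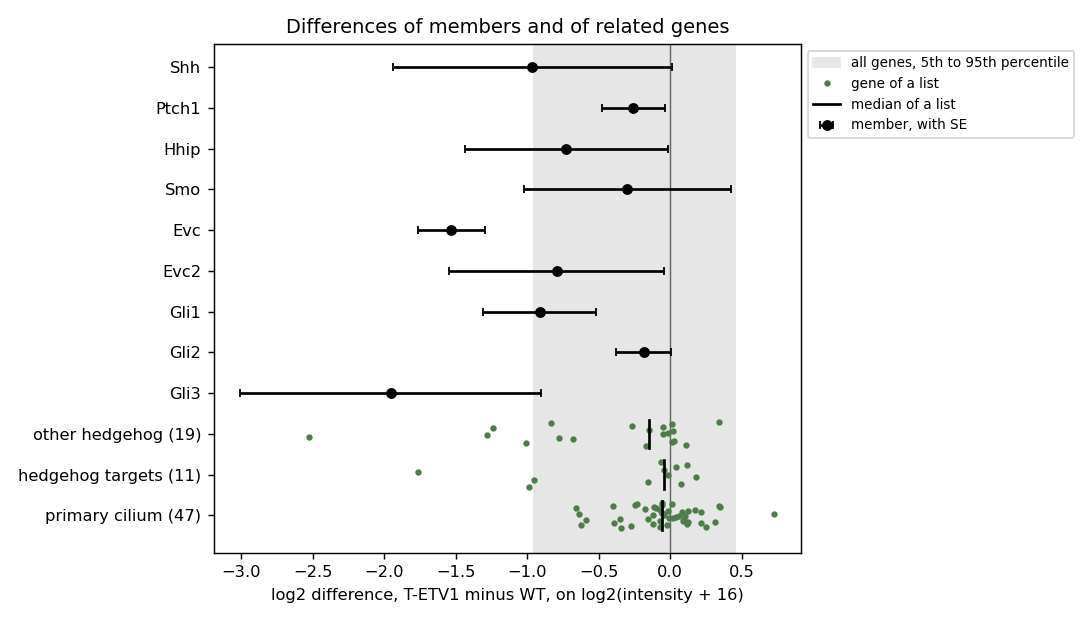
Log2 difference, T-ETV1 minus WT, of the 9 genes (black, with SE) and of the measured genes of the other hedgehog (19), hedgehog target (11) and primary cilium (47) lists (green, bars at the medians of -0.15, -0.04 and -0.06). The grey band holds the 5th to 95th percentile of all genes, -0.95 to 0.45, and Evc, Gli3 and Shh lie below it.

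Over 16 alternatives for Evc and 17 for Gli3 the difference stayed below 0, between -2.80 and -0.69 for Evc and between -2.79 and -1.24 for Gli3. That of Shh ran from -1.54 to -0.17, of Evc2 from -1.52 to -0.27, of Gli1 from -1.45 to -0.42 and of Gli2 from -0.67 to -0.05. Hhip, Smo and Ptch1 changed sign in at least 1 alternative. Evc was chosen by its difference and its groups do not overlap, so leaving out arrays could not turn its sign. The alternatives are also not all separate. An eBayes trend changes no difference, and the replicate block gave the same differences as leaving out T-ETV1 D. These ranges are therefore a description of the settings, not a measure of support.

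**Figure D5:**
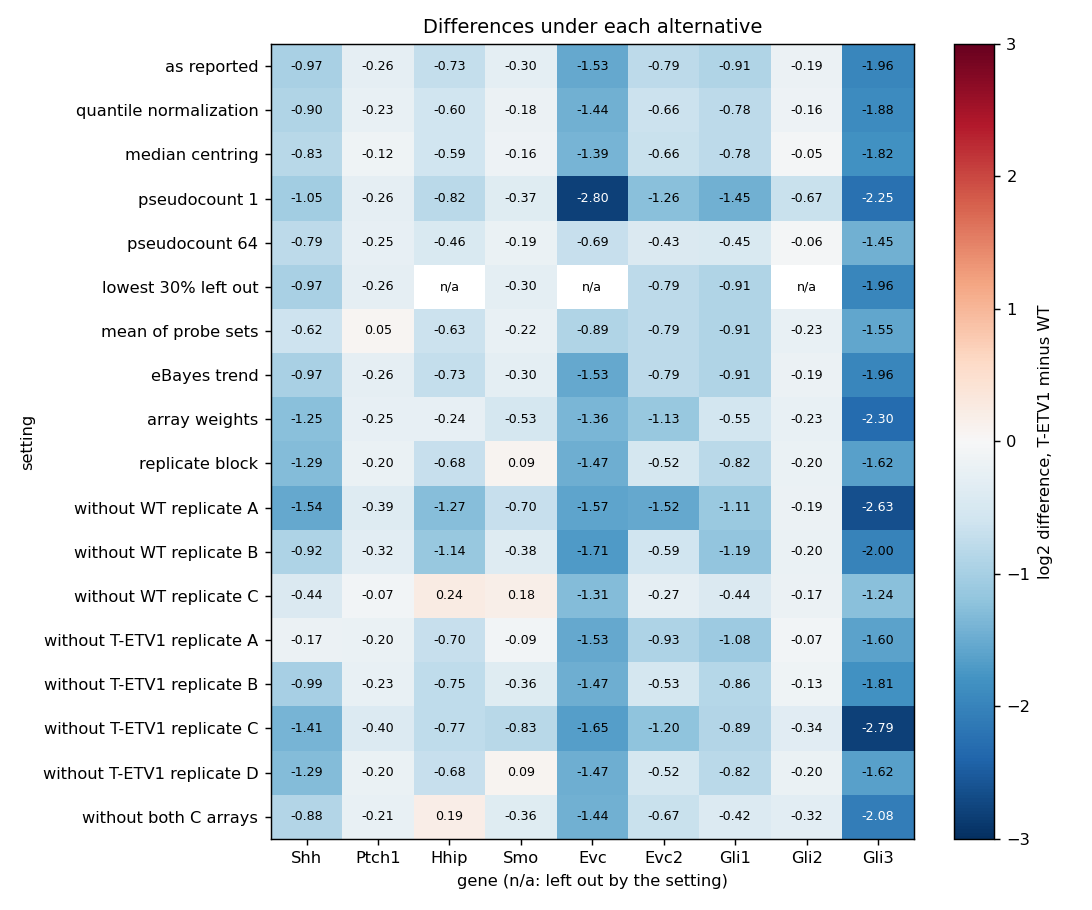
Log2 difference, T-ETV1 minus WT, of each gene (columns) as reported and under each of 17 alternatives (rows), in colour and as a number, with n/a where the filter on the lowest 30% left the gene out. Evc, Evc2, Gli1, Gli2, Gli3 and Shh are below 0 in every cell with a value, while Hhip, Smo and Ptch1 turn above 0 in 2, 3 and 1 cells. The rows for the replicate block and for the fit without T-ETV1 D hold the same values.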

How the data were processed

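Each array has 1 deposited intensity (linear) per probe set, between 0.98 and 14597. How the authors summarised probes and scaled arrays is not given in the sources used here. Per the labels' protocols, RNA was extracted with Trizol and amplified with a NuGEN kit. Array medians of log2(intensity + 16) differed by at most 0.476, under the limit of 0.5 for quantile normalization, so the deposited scaling was kept. The array medians lay between 48.5 and 73.7. Gene names came from the platform annotation (34945 with 1 symbol, 932 with several and 9160 not listed), with symbols updated by Entrez ID from a GRCm38.p6 gene table. Genes with several probe sets were represented by that of the highest mean. T-ETV1 and WT were compared with limma 3.58.1 in R 4.3.3 across all 18193 genes, and across all 45037 probe sets for single probe sets, with Benjamini-Hochberg adjustment. SEs of the 9 genes come from the gene fit, those of a further probe set from the probe set fit. The fit was also run on simulated data in which each gene varied on its own. That simulation held no variation shared between genes on an array, so it cannot show how the fit behaves with such variation.

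The members, lists and tests were chosen with earlier results of these data known. Named beyond the 9 genes are up to 6 genes of each hedgehog or cilium list by unadjusted p, up to 3 of each cell type list by mean, 5 genes nearest to each member in pattern, and neighbours of Evc. Listed genes without a measured row were not analysed here.

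Both groups carry the letters A to C. The sample titles give these letters alone and do not state a pairing. Same-letter arrays deviated together from their group means, with correlations of 0.281 for A, 0.217 for B and 0.356 for C. All were over the limit of 0.1, so the letters were used to set arrays side by side and as a block in an alternative fit. WT A and T-ETV1 D also passed this limit, at 0.187, so it does not single out pairs. The reported differences and SEs come from the fit without pairing. Precision is limited by the 7 arrays.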

Additional observations from a re-analysis of the deposited data

Results flagged for a closer look

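Among 39 probe sets checked for an array far from the others of the 4 T-ETV1 arrays, 2 were found, and chance alone marks about 1 in 20. For Ptch1 (1428853_at) T-ETV1 C lay above the others, with a gap of 0.872 of the group's range on the log2 scale. The intensities were 2086 in T-ETV1 C and 1371 to 1446 in the other T-ETV1 arrays. For the coreceptor gene Cdon T-ETV1 B lay above the others, with a gap of 0.835 of the range, at 275 against 50.5 to 68.9 in T-ETV1 A, C and D. WT arrays had 144 to 307 for Cdon.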

How the results depend on the processing

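Counts of genes past a limma adjusted p of 0.05 over all genes were 0 in the fit as reported, 7 without WT C, 27 without T-ETV1 C and 68 without both C arrays, and 0 under each other alternative, including an adjusted p threshold of 0.1. Leaving out single arrays thus gave 0 to 27. No gene of the other hedgehog, hedgehog target or primary cilium lists that was tested was called under any of the 17 alternatives, which also include quantile normalization, median centring (which moved the median of all genes to 0.11), pseudocounts of 1 and 64, leaving out the lowest 30% of genes, an eBayes trend and array weights. The fit with the replicate letter as a block on arrays A to C called 0 genes and changed no call. With the replicate block 8 of the 9 genes were lower, and the difference of Smo was 0.086. That fit leaves out T-ETV1 D, and its differences for the 9 genes equal those of the fit without T-ETV1 D. The block itself thus turned no sign. Signs that turned were those of Ptch1 with the mean of its probe sets (0.053), Smo without WT C (0.18) and without T-ETV1 D (0.086), and Hhip without WT C (0.24) and without both C arrays (0.19). Over the fits without single arrays Hhip ran from -1.27 to 0.24 and Smo from -0.83 to 0.18. The count of lower genes among the 9 ran from 7 without WT C to 9 over the fits that left out single arrays, and the filter on the lowest 30% left 6 genes, all lower. The cause of these turns beyond the array or probe sets named was not tested. Signal close to background limits the values of Evc and Gpr161 in T-ETV1 and of Hhip, Gli1 and Gli2.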
